A study of Mus musculus with 12 samples.

Results

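The translation initiation and elongation factor genes of NIH-3T3 cells were taken from the deposited gene table by symbol, as every entry that starts with Eif1 to Eif6 or with Eef1 or Eef2. The rule found 70 of the 17419 genes. It takes in the subunits of the factors, the kinases and binding proteins that regulate them, and enzymes and other proteins named after a factor. It also takes in Eif2c5, an older symbol from the Argonaute family that GENCODE annotates as a long non-coding RNA and that had 1 read in the whole series.

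NIH-3T3 is an established, immortalised line of mouse fibroblasts, wild-type in every group here. The cells received 800 µM 4-thiouridine (4sU), a uridine analogue that is built into new RNA, for 15, 30, 60, 90 or 120 min, and 1 group received none (no4sU). Each of the 6 groups had 2 libraries of total RNA, lettered A and B. All were made by SLAM-seq, in which iodoacetamide turns the incorporated 4sU into a base read as C, so that new and pre-existing transcripts of a gene can be separated by their T-to-C changes. The question of the series was how labelling time biases the quantification.

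Initiation joins the small ribosomal subunit, the initiator tRNA and a capped mRNA. eIF2 carries the tRNA and is recharged by the exchange factor eIF2B, eIF3 holds the complex together, eIF4F binds the cap and unwinds the 5′ leader, and eIF1 and eIF1A guard the choice of start codon. Elongation then needs eEF1, which delivers aminoacyl-tRNA, and eEF2, which moves the ribosome along. Both phases are throttled by phosphorylation, of eIF2 by the Eif2ak kinases and of eEF2 by Eef2k, and by the 4E-binding proteins that sequester the cap-binding protein eIF4E.

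Many mRNAs of the translation machinery start with a C followed by a run of C and T, the terminal oligopyrimidine tract through which their translation is regulated, and some unstable mRNAs carry the AU-rich letters TATTTAT in their 3′ UTR. Both were searched for, on the strand of the gene only, since these are the cis elements best known for factor mRNAs and for mRNA decay. The starts came from RefSeq promoter sequences on GRCm38.p6, matched by symbol for 55 of the 70 genes. A run of at least 8 C and T that begins with C lay within the 30 bases around the annotated start in 10 of these 55 (18.2%), against 9.62% of the 12682 genes of the table with an entry. A C followed by 4 of C or T stood exactly at the annotated start in 3 (5.45%), against 2.43%. These are Eif2s3x, Eif3f and Eif2c5, and Eif2c5, the non-coding gene, is also among the 10. The runs are in capitals in 4 examples, chosen because they belong to a very abundant elongation factor and to members of eIF2, eIF2B and eIF3. The windows are Eef1a1 at chr9:78481710-78481739, minus strand, Eif2s3x at chrX:94212637-94212666, minus strand, Eif2b5 at chr16:20498802-20498831, plus strand, and Eif3f at chr7:108934400-108934429, plus strand.
Eef1a1: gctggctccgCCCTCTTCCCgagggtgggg
Eif2s3x: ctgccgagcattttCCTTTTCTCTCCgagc
Eif2b5: CCTTCCTCTTTCTCTCCCTgcaactacacc
Eif3f: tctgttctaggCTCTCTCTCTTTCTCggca

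TATTTAT occurred in the 3′ UTR of 17 of the 69 factor genes with an annotated one (24.6%), against 26% of 15036 genes. Their 3′ UTRs had a median length of 540 bases, against 874. The first site is in capitals for 4 genes whose values are given further on, in GENCODE M21 transcripts on GRCm38. They are Eif2ak3 at chr6:70905111-70905133, plus strand, Eif3a at chr19:60761338-60761360, minus strand, Eif5 at chr12:111544820-111544842, plus strand, and Eef2 at chr10:81182205-81182227, plus strand.
Eif2ak3: ttatttttTATTTATaaaaattc
Eif3a: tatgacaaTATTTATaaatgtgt
Eif5: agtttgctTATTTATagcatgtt
Eef2: accaattcTATTTATttcggaat

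Libraries held 9917026 to 13739380 reads, and the factor genes took 3.20% to 3.40% of them. Of the 70 genes, 64 had a mean count of at least 100 reads, as had 9065 genes in all, and 66 were tested. The 4 that were not tested were Eef1a2, Eef1akmt3, Eif4a3l1 and Eif2c5. Fibroblast markers summed to 14190 to 17530 CPM (counts scaled to library size) in each library, and 6 of 10 rose and 1 fell with labelling time. The measured epithelial markers, Cdh1 and Krt8, summed to at most 0.582 CPM, the immune markers Ptprc and Cd68 to at most 6.88 and 3 endothelial markers to at most 1.70. The no4sU libraries differed from each other more than the libraries of any labelled group, with a mean chi-square per gene of 3.53, against 1.35 to 1.48. Their difference followed gene length, with a Spearman rho of 0.566 over the 64 factor genes and 0.576 over all genes. Calls against the no4sU group are therefore also described without each of its libraries.

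The new-to-total ratio (NTR) is the authors' estimate of the fraction of a gene's RNA made since 4sU was added. In the factor genes it was mostly below that of the other genes. The median NTR of the 64 genes was 0.112 ± 0.00258 (SD, n = 2 libraries) after 60 min, 0.178 ± 0.0064 after 90 min and 0.260 ± 0.00923 after 120 min. The median over all 9065 genes was higher each time, at 0.155, 0.244 and 0.354. At 120 min 45 of the 64 lay below the median of all genes. At 15 min the median was 0.00990 and 0.0054 in the 2 libraries, a fraction too small to rank genes by.

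**Figure D1:**
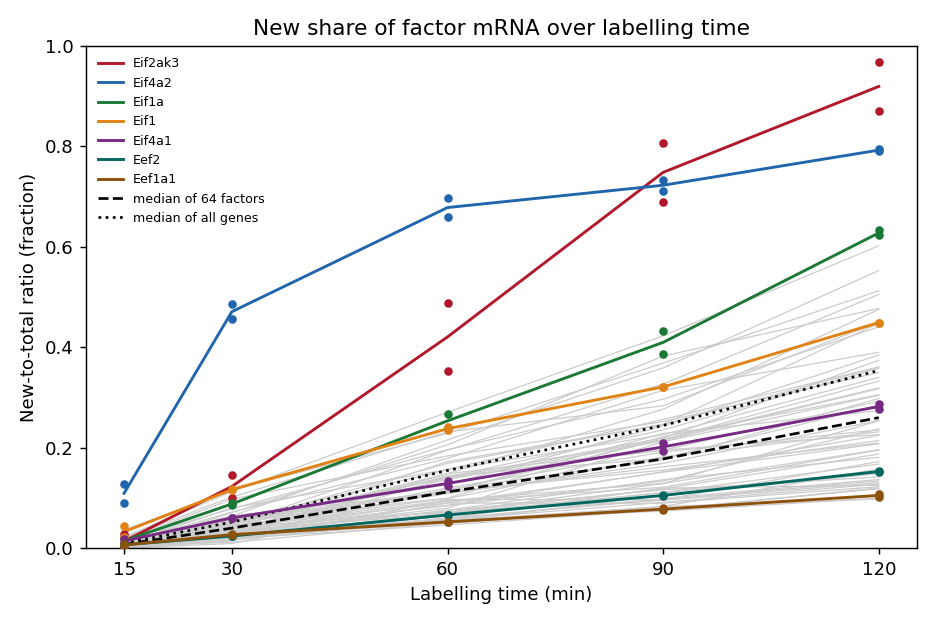
New-to-total ratio (fraction, vertical axis) against labelling time (min, horizontal axis) for the 64 factor genes that averaged 100 reads or more. Grey lines are gene means of 2 libraries, 7 genes are coloured with a point per library, and the broken and dotted lines are the medians of the factor genes and of all genes. Eif4a2 gained most between 15 and 30 min, Eif2ak3 ended highest, and Eef1a1 and Eef2 stayed below both medians.

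The groups of factors differed widely in this measure. Elongation factors had the smallest new share, with NTR between 0.0998 and 0.153 at 120 min in the 5 measured genes (median 0.128). The 14 eIF3 subunits followed, with a median of 0.160 but a range from 0.098 to 0.553. eIF2, eIF2B and Eif2a had a median of 0.221, the genes named after another factor 0.254, the subunit joining factors and eIF5A 0.27, and the eIF4 group 0.3. The kinases and regulators had 0.368 (0.285 to 0.919), and the 4 start-codon factors had the highest median, 0.45 (0.142 to 0.628). These are group descriptions, with no test between groups.

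At the low end stood Eif3k, a small peripheral eIF3 subunit, with an NTR of 0.0890 and 0.107 at 120 min. Eef1b2, the nucleotide exchange subunit of eEF1, had 0.1003 and 0.0992. Eef1a1, the tRNA-delivering GTPase, had 0.107 and 0.103. The 90% intervals of the authors for Eif3k, 0.0737 to 0.108 and 0.0915 to 0.125, overlapped the values of the other genes, so the order of these 3 is not resolved.

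At the high end stood Eif2ak3, which encodes PERK, the eIF2 kinase that senses unfolded protein in the endoplasmic reticulum. Its NTR in libraries A and B was 0.0279 and 0.0 after 15 min, 0.145 and 0.101 after 30 min, 0.354 and 0.488 after 60 min, 0.807 and 0.690 after 90 min, and 0.967 and 0.871 after 120 min. Nearly all of its RNA was thus estimated to be new after 120 min, a higher share than in 93.6% of all genes. It was a weakly expressed gene, with 218 and 254 reads at 120 min, and the 90% intervals there were wide, 0.872 to 0.991 and 0.777 to 0.940. The other eIF2 kinases had a lower new share at 120 min. It was 0.277 and 0.293 for Eif2ak1 (HRI, the haem-regulated kinase), 0.357 and 0.391 for Eif2ak2 (PKR, activated by double-stranded RNA), and 0.482 and 0.469 for Eif2ak4 (GCN2, activated by uncharged tRNA).

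The paralogous helicases of eIF4F behaved very differently. Eif4a2 had an NTR of 0.129 and 0.0904 after 15 min, 0.457 and 0.485 after 30 min, 0.659 and 0.698 after 60 min, 0.734 and 0.712 after 90 min, and 0.790 and 0.795 after 120 min. At 30 min this was above 99.4% of all genes, and at 120 min above 86.7%. Eif4a1, its more abundant paralog, had 0.0607 and 0.0601 at 30 min and 0.288 and 0.276 at 120 min. Eif4a3, the helicase of the exon junction complex, had 0.0657 and 0.0487 at 30 min and 0.342 and 0.324 at 120 min. At every labelled time both Eif4a2 libraries were above all libraries of the other 2 genes.

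Multiplying NTR by CPM splits the level into a new and a pre-existing part. Pre-existing Eif4a2 RNA was 295 and 321 CPM after 15 min, 167 and 176 after 30 min, 101 and 94.9 after 60 min, 87.0 and 86.2 after 90 min, and 68.7 and 69.1 after 120 min. The drop between the 15 and 30 min libraries was larger than that over the whole hour from 60 to 120 min. Pre-existing Eif4a1 RNA was 1530 and 1590 CPM at 15 min and 1165 and 1169 at 120 min. New Eif4a2 RNA rose from 43.5 and 31.9 CPM to 259 and 268.

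**Figure D2:**
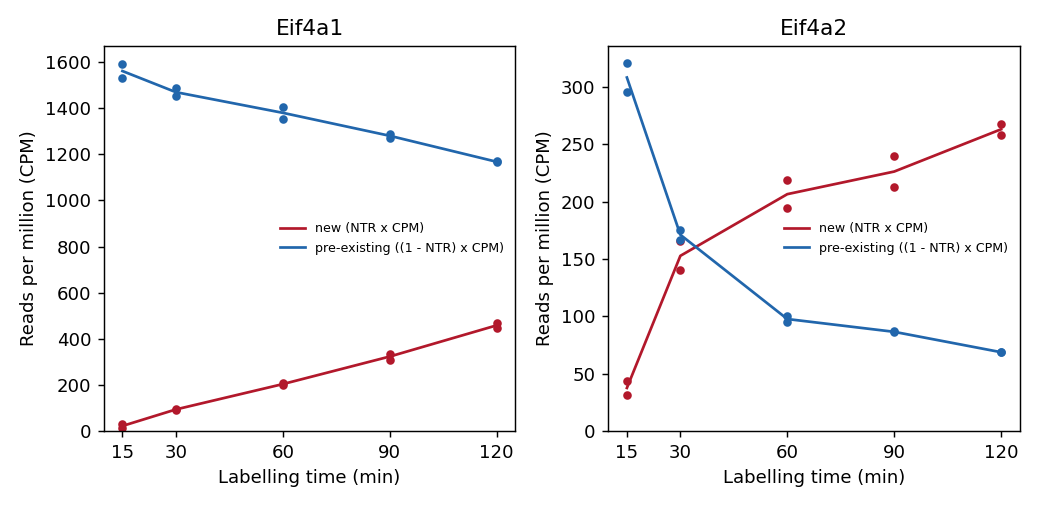
New (NTR times CPM) and pre-existing RNA (the remainder), in CPM on linear axes that start at 0, against labelling time in min for Eif4a1 and Eif4a2. Points are the 2 libraries of a time and lines join their means. The curves of Eif4a2 crossed between 30 and 60 min, and those of Eif4a1 did not cross by 120 min.

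An apparent half-life follows from the NTR if synthesis and loss are at constant rates and new RNA is labelled at once and fully counted. Only under all of these conditions should it not depend on the labelling time, and they were not tested. For Eif4a2 it was 34.1 and 31.3 min from the 30 min libraries and 53.3 and 52.5 min from the 120 min libraries, so it was longer at 120 than at 30 min and the replicates did not overlap. From the 15 min libraries it was longer again and less certain, 75.6 and 110 min. Most factor genes moved the other way. Of 59 with a value at both times, 3 had a longer mean half-life at 120 than at 30 min, Eef1b2, Eif4a2 and Eif5a (5.08%, against 7.29% of 7855 genes). Eif4a1 had 332 and 336 min at 30 min and 245 and 257 min at 120 min. The median over the 64 factor genes fell from 350 ± 8.53 min after 60 min to 319 ± 12.1 after 90 min and 277 ± 11.8 after 120 min (SD, n = 2), and over all genes from 247 to 198 min.

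Eif4a2 is also unusual in its gene model (chr16:23107444-23114136, plus strand, GENCODE M21). It hosts 5 snoRNA genes, and 15 of its 25 transcripts are annotated as retained-intron and 3 as targets of nonsense-mediated decay. snoRNA hosts were frequent among the factor genes, at 9 of 64 (14.1%), against 206 of 9056 genes (2.27%). They are Eef1b2, Eef2, Eif2ak3, Eif3a, Eif4a1, Eif4a2, Eif4g1, Eif4g2 and Eif5. Their NTR at 120 min ran from 0.0998 to 0.919 with a median of 0.282, against 0.254 for the other factor genes. Whether intron-containing or snoRNA reads enter the counts was not given in the sources used here.

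Neither sequence feature split the new share into separate ranges. The 9 measured genes with a run of C and T within the 30 bases around the annotated start had a median NTR of 0.196 at 120 min (0.105 to 0.505). The 43 without had 0.298 (0.098 to 0.919). The starts used in these cells were not measured. By the annotated starts Eef2 and Eef1b2 had no such run and are among the 43. The 16 measured genes with TATTTAT had 0.312 (0.153 to 0.919), against 0.225 (0.098 to 0.793) for the 48 without. The ranges of the groups overlapped in both cases. Eef2 with its TATTTAT site had an NTR of 0.154 and 0.151. Eif4a2 and Eif4g3 were counted as without it, but the transcript searched had only 3 bases of 3′ UTR. That is too short to hold the motif, so nothing can be said of a site in these genes.

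Levels of different genes were compared as CPM per kb of the deposited gene length, averaged over the 12 libraries. Eef1a1 was highest at 4900, followed by Eef2 at 1472, Eif5a at 1121, Eef1g at 922, Eif4a1 at 505 and Eef1b2 at 400. Eif5a encodes the hypusine-modified factor that relieves stalled ribosomes. In the remaining groups the highest were Eif1 at 357, Eif3h at 203, Eif6 at 116, Eif4ebp1 at 101 and Eif2s2 at 97.1. Eif6 keeps the large ribosomal subunit from joining too early, Eif4ebp1 is the mTOR-regulated inhibitor of eIF4E, and Eif2s2 is the β subunit of eIF2.

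One paralog dominated in several pairs. Eef1a2, the eEF1A of muscle and neurons, had a mean of 0.833 reads per library, at or below 0.271 CPM in each, while Eef1a1 had 8115 to 9735 CPM. Eif5a2 had 2.28 CPM per kb, against 1121 for Eif5a. Eif1b had 24.2, against 357 for Eif1. Near-identical copies share reads, and their division between genes was not given in the sources used here. Values of Eif1 and Eif1b, Eif1a and Eif1ax, Eif2s3x and Eif2s3y, Eif3j1 and Eif3j2, of Eif4a3 with its 2 copies, and of Eef1a1 are uncertain in this respect. Any sharing of reads between Eif4a1 and Eif4a2 was not assessed.

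Over labelling time, all 5 tested elongation factors and 10 of 14 eIF3 subunits rose in TMM-scaled level, while 6 of 9 kinases and regulators fell. A slope of log2 level over time was fitted in edgeR, with TMM scaling, to the 10 labelled libraries. It was called at a Benjamini-Hochberg adjusted p below 0.05 over all 11526 genes tested. Of the 66 factor genes 32 were called (48.5%, background 37.8%), 22 of them higher with time (33.3%, background 18.3%) and 10 lower (15.2%, background 19.5%). The median slope was 0.04 log2 per hour over the factor genes and 0.00 over all genes. The letters do not say that libraries A and B came from separate cultures, so p-values measure only the spread between these libraries.

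The balance of these calls depended on the scaling. TMM scaling assumes that most genes do not change. With library size alone, 18 were higher (all genes 10.2%) and 15 lower (26.3%), and the share of higher calls went from 68.8% to 54.5%. Another alternative raised the labelled part of each count by the loss that levels out the relation of fold change and NTR. Fold changes for this were taken against the mean of the no4sU libraries, which differed from each other. The loss was 14.6% after 60 min, 22.5% after 90 min and 31.3% after 120 min. In the 15 and 30 min libraries it came out at -29.7% to 0.443% and was set to 0. With this scaling 13 were called, 6 higher (all genes 5.62%) and 7 lower (7.77%). Still higher were Eef1b2, Eef1d, Eef2, Eif3g and Eif4a3l2, joined by Eif4a2. Eef2k, Eif2ak2, Eif3a, Eif3j2, Eif4enif1 and Eif5 were still lower, joined by Eif2s2. CPM here is relative to the TMM-scaled library size, and none of these scalings says how many molecules a cell holds.

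**Figure D3:**
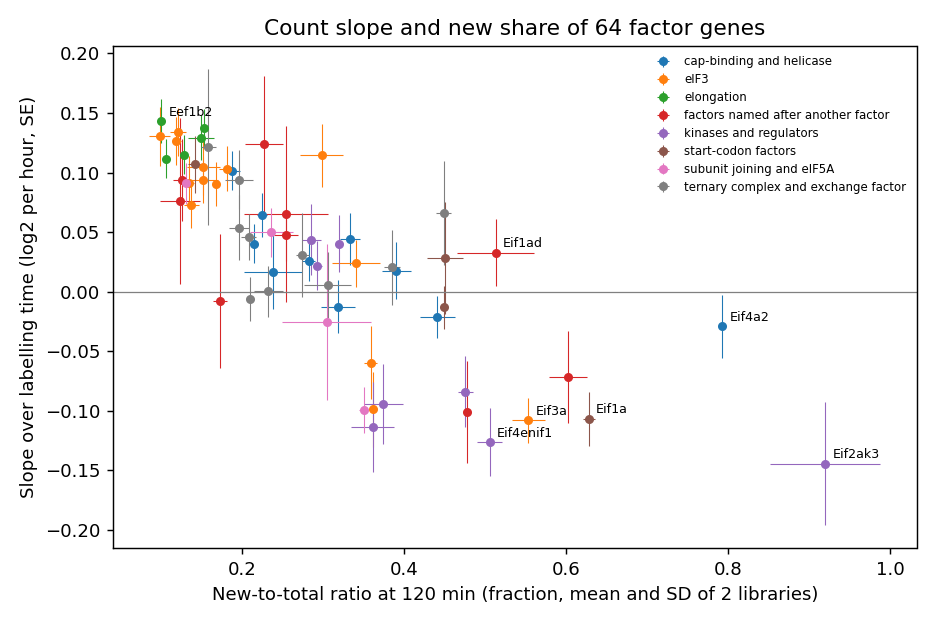
Slope of log2 level over labelling time (log2 per hour with SE, edgeR, vertical axis) against NTR at 120 min (fraction, mean and SD of 2 libraries, horizontal axis) for 64 factor genes, coloured by role. Genes with a small new share lie mostly above 0 and genes with a large one mostly below. Eif4a2 lies near 0 with an NTR of 0.793.

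Slope and new share went together. The 21 measured genes called higher had an NTR of 0.098 to 0.298 at 120 min (median 0.142). The 9 called lower had 0.350 to 0.919 (median 0.475), with no overlap between the 2 sets, and the 34 not called had 0.123 to 0.793. The genes called lower were also longer, with a median of 4313 bases against 2514 for those called higher. NTR and length by call were not computed over all genes, so neither can be called particular to the factor genes. Across the 64 genes, the log2 fold change of a library against the 15 min libraries correlated with its NTR at a mean Spearman rho of -0.44 ± 0.0315 after 60 min, -0.67 ± 0.0752 after 90 min and -0.80 ± 0.0116 after 120 min (SD of 2 libraries). Over all 9065 genes rho was -0.42, -0.61 and -0.73. These are correlations across genes, which are not independent replicates, and both axes come from the same library.

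All 5 tested elongation factors rose with time. Eef2, the translocase, was at 4322 and 4243 CPM in no4sU, 4224 and 4369 after 15 min, 4327 and 4275 after 30 min, 4605 and 4523 after 60 min, 4898 and 4737 after 90 min, and 5137 and 4918 after 120 min. Every library from 60 min on was above all libraries of 15 and 30 min. Its slope was 0.14 ± 0.0162 log2 per hour (SE, edgeR adjusted p = 1.21e-08). Eef1b2 was at 810 and 742 CPM in no4sU, 734 and 734 after 15 min, 710 and 731 after 30 min, 767 and 750 after 60 min, 807 and 801 after 90 min, and 847 and 882 after 120 min. Its no4sU libraries lay within the range of the labelled ones, and its slope was 0.14 ± 0.0183 (adjusted p = 6.21e-08, edgeR).

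Eef1d, the δ subunit of the exchange complex, was at 387 and 355 CPM in no4sU, 346 and 349 after 15 min, 350 and 350 after 30 min, 368 and 357 after 60 min, 372 and 378 after 90 min, and 409 and 410 after 120 min. The 120 min libraries were above all others, and the slope was 0.13 ± 0.0191 (edgeR adjusted p = 8.14e-07). Eef1a1 was at 8535 and 8115 CPM in no4sU, 8380 and 8535 after 15 min, 8455 and 8281 after 30 min, 8966 and 8579 after 60 min, 9430 and 9115 after 90 min, and 9735 and 9361 after 120 min. It rose by 0.11 ± 0.0164 per hour (edgeR adjusted p = 7.37e-07), as did Eef1g, the γ subunit, by 0.12 ± 0.0167 (5.99e-07). Together with Eef2, Eef1a1 took a large part of the group's reads. The summed level of all 70 genes went from 31553 and 32083 CPM at 15 min to 35063 and 34280 at 120 min. Without Eef1a1 and Eef2 it went from 18949 and 19180 to 20191 and 20001. As an unscaled share of reads, all 70 genes went from 3.203% and 3.234% at 15 min to 3.398% and 3.343% at 120 min.

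**Figure D4:**
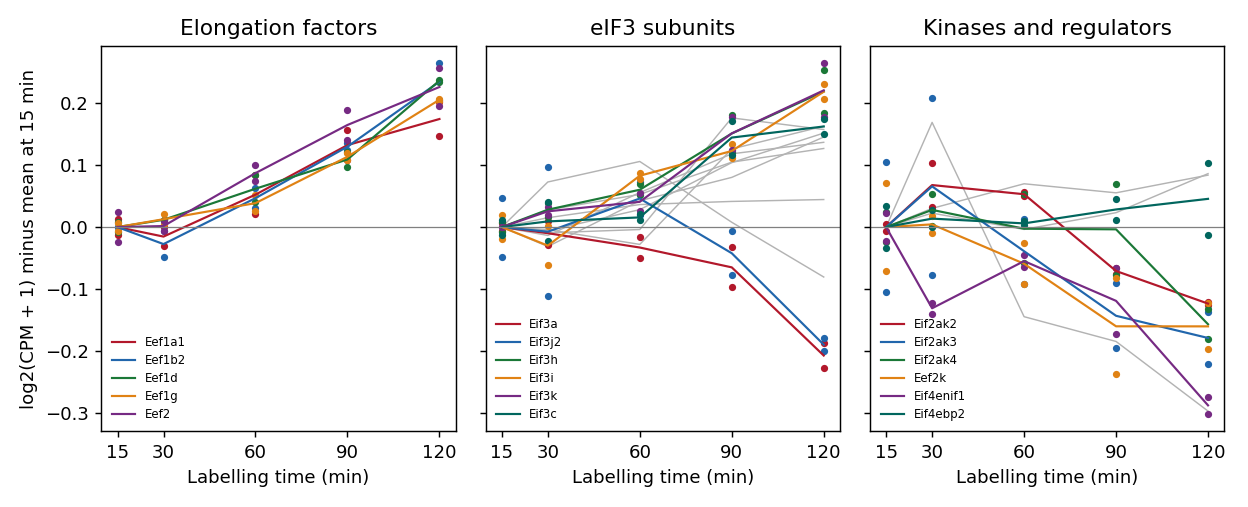
Change of log2(CPM + 1) from the mean of the 15 min libraries (vertical axis) against labelling time (min, horizontal axis) for the 5 tested elongation factors, 14 eIF3 subunits and 9 kinases and regulators. Lines join the means of 2 libraries, 6 genes at most in a panel are coloured with a point per library, and the rest are grey. All elongation factors end above 0, as do all eIF3 subunits but Eif3a, Eif3j1 and Eif3j2, and of the regulators Eif2ak1, Eif4ebp1 and Eif4ebp2 end above 0 and the other 6 below.

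Of the 14 eIF3 subunits, 10 rose with time and 2 fell. The risers were Eif3b, Eif3c, Eif3e, Eif3f, Eif3g, Eif3h, Eif3i, Eif3k, Eif3l and Eif3m, with slopes from 0.07 (Eif3e) to 0.13 (Eif3i). The slope of Eif3e was not called with library-size scaling and turned to -0.0083 with the labelled part scaled up. Eif3h was at 267 and 241 CPM in no4sU, 249 and 247 after 15 min, 251 and 255 after 30 min, 257 and 260 after 60 min, 270 and 281 after 90 min, and 282 and 296 after 120 min. Each labelled time after 15 min was above the one before it, and the slope was 0.13 ± 0.0199 (edgeR adjusted p = 2.49e-06). Eif3k rose from 109 and 108 CPM at 15 min to 123 and 131 at 120 min, by 0.13 ± 0.0246 per hour (edgeR adjusted p = 4.78e-05).

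Eif3a, the largest subunit and the scaffold of the complex, went against the others. It was at 769 and 929 CPM in no4sU, 900 and 909 after 15 min, 886 and 911 after 30 min, 873 and 895 after 60 min, 884 and 845 after 90 min, and 794 and 772 after 120 min. The 120 min libraries were the lowest of the labelled ones, while the no4sU libraries spanned the whole range. The slope was -0.11 ± 0.0186 (edgeR adjusted p = 1.14e-05). Its NTR at 120 min was 0.567 and 0.539, the highest of eIF3. Eif3j2, a copy of the loosely bound j subunit, also fell, by -0.10 ± 0.0315 (edgeR adjusted p = 0.0114). This call was lost without either of the 120 min libraries. Eif3j1 had a slope of -0.06 (adjusted p = 0.119) and Eif3d, the cap-binding subunit, 0.02 (adjusted p = 0.358).

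None of the 9 kinases and regulators rose and 6 fell. They were Eef2k, Eif2ak2, Eif2ak3, Eif2ak4, Eif4ebp3 and Eif4enif1. Eif4enif1 encodes 4E-T, which brings eIF4E to sites of mRNA repression. It was at 104 and 105 CPM in no4sU, 109 and 113 after 15 min, 101 and 102 after 30 min, 106 and 108 after 60 min, 106 and 98.3 after 90 min, and 91.6 and 89.9 after 120 min. Both 120 min libraries were below all 10 others, and the slope was -0.13 ± 0.0284 (edgeR adjusted p = 0.000454).

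Eif2ak3 was at 24.7 and 23.3 CPM in no4sU, 20.8 and 24.1 after 15 min, 26.0 and 21.2 after 30 min, 22.6 and 20.95 after 60 min, 19.4 and 20.96 after 90 min, and 20.3 and 19.1 after 120 min. Times overlapped, and the slope of -0.14 ± 0.0517 (edgeR adjusted p = 0.024) was lost without 15 min B, 30 min A or 120 min B. It was 0.02 with the labelled part scaled up. The calls of Eef2k (-0.11, adjusted p = 0.0149), Eif2ak2 (-0.09, 0.0242), Eif2ak4 (-0.08, 0.0226) and Eif4ebp3 (-0.27, 0.024) were each lost without at least 1 of the labelled libraries, always including one of the 120 min libraries. DESeq2 did not call Eif2ak2, Eif2ak3 or Eif4ebp3. Eif4ebp3 had a mean of 65.8 reads and lies at the end of Ankhd1, with which it shares a read-through transcript, so its reads are uncertain. Eif2ak1, Eif4ebp1 and Eif4ebp2 had slopes of 0.04, 0.04 and 0.02 that were not called. Eif4ebp1 was at 202 and 193 CPM at 15 min and 205 and 214 at 120 min.

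Among the start-codon factors the interchangeable eIF1A genes moved in opposite directions. Eif1a was at 239 and 264 CPM in no4sU, 253 and 263 after 15 min, 253 and 277 after 30 min, 256 and 253 after 60 min, 255 and 249 after 90 min, and 222 and 229 after 120 min. X-linked Eif1ax was at 175 and 196 CPM in no4sU, 187 and 182 after 15 min, 177 and 202 after 30 min, 195 and 193 after 60 min, 201 and 191 after 90 min, and 208 and 219 after 120 min. At 120 min Eif1a was below, and Eif1ax above, every other library of the same gene. Their slopes were -0.11 ± 0.0228 (edgeR adjusted p = 0.000238) and 0.11 ± 0.0241 (0.000481), and their NTR at 120 min was 0.633 and 0.623 for Eif1a and 0.136 and 0.148 for Eif1ax. The difference between the slopes was not tested. Eif1 was at 479 and 470 CPM at 15 min and 462 and 464 at 120 min, with a slope of -0.01 (adjusted p = 0.60, edgeR) in spite of an NTR of 0.449 and 0.449.

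Eif5, the GTPase activator of eIF2, and Eif5a also went opposite ways. Eif5 was at 526 and 603 CPM in no4sU, 567 and 575 after 15 min, 570 and 594 after 30 min, 576 and 557 after 60 min, 560 and 544 after 90 min, and 506 and 505 after 120 min. It was lowest in the 120 min libraries, with a slope of -0.10 ± 0.0192 (edgeR adjusted p = 6.3e-05). Eif5a was at 1740 and 1451 CPM in no4sU, 1552 and 1561 after 15 min, 1526 and 1536 after 30 min, 1618 and 1552 after 60 min, 1716 and 1660 after 90 min, and 1728 and 1682 after 120 min. Its slope was 0.09 ± 0.0171 (adjusted p = 4.41e-05, edgeR), and its no4sU libraries lay at both extremes. Eif5b, which joins the subunits, had a slope of 0.05 (adjusted p = 0.0547).

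In the eIF4 group, 3 of 11 tested genes rose and none fell. Eif4g1, the scaffold of eIF4F, was at 1191 and 1329 CPM in no4sU, 1296 and 1333 after 15 min, 1319 and 1316 after 30 min, 1394 and 1356 after 60 min, 1446 and 1425 after 90 min, and 1500 and 1452 after 120 min. Libraries from 60 min on were above all earlier ones, with a slope of 0.10 ± 0.0165 (edgeR adjusted p = 4.14e-06). The other scaffold genes, Eif4g2 and Eif4g3, had slopes of 0.04 and 0.02 that were not called. Eif4h, a helper of the helicase, rose by 0.06 ± 0.0184 (edgeR adjusted p = 0.00467), a call lost with library-size scaling. Eif4a3l2, a copy of Eif4a3, had a mean of 19.9 reads and a slope of 0.65 ± 0.161 (edgeR adjusted p = 0.0013).

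Eif4a1, Eif4a2 and the cap-binding proteins were not called in either direction. Eif4a2 was at 348 and 408 CPM in no4sU, 339 and 353 after 15 min, 307 and 341 after 30 min, 295 and 314 after 60 min, 327 and 299 after 90 min, and 327 and 337 after 120 min. Times overlapped and the slope was -0.03 ± 0.0266 (edgeR adjusted p = 0.41), although it had the second highest new share of all 64 genes. With the labelled part scaled up its slope was 0.11 (edgeR adjusted p = 0.00388). Eif4a1 was at 1560 and 1606 CPM at 15 min and 1635 and 1616 at 120 min, with a slope of 0.03 ± 0.0164. Eif4e and Eif4e2 had slopes of -0.01 and 0.02.

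Of the 10 genes of eIF2, eIF2B and Eif2a, 1 rose, Eif2b5, the catalytic subunit of eIF2B. It was at 132 and 124 CPM at 15 min and 149 and 138 at 120 min, with a slope of 0.09 ± 0.0248 (edgeR adjusted p = 0.00242) that was lost with library-size scaling. Eif2s2 was at 395 and 406 CPM at 15 min and 394 and 401 at 120 min, with a slope of -0.01 ± 0.0183. Of the 9 tested genes named after another factor 1 rose, Eif2d, a tRNA-binding protein of non-canonical initiation, by 0.09 ± 0.0347 (edgeR adjusted p = 0.0294). Its call was lost in 7 alternatives, including without 15 min A, 15 min B, 30 min B or 120 min B. Eif6 had a slope of 0.05 (adjusted p = 0.0857).

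The longest labelling set directly against the shortest gave the same picture with fewer calls. From 15 to 120 min 13 of 66 factor genes rose (19.7%, background 7.93%) and 4 fell (6.06%, background 11.3%), 17 in all (25.8%, background 19.3%). All 17 were called in the same direction by the slope, which uses the same libraries. The largest rises with at least 100 reads were those of Eef1d (log2 fold change 0.24 ± 0.051 SE, edgeR adjusted p = 0.00352), Eef1b2 (0.24 ± 0.051, 0.00328), Eef2 (0.23 ± 0.045, 0.00195) and Eif3k (0.23 ± 0.068, 0.0252). The falls were those of Eif4enif1 (-0.29 ± 0.060, 0.00254), Eif3a (-0.21 ± 0.064, 0.0276), Eif1a (-0.19 ± 0.059, 0.0283) and Eif5 (-0.17 ± 0.057, 0.0368).

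Eef2 and Eif4enif1 alone among the 17 kept the call in every alternative that was run other than the scaled-up labelled part, under which only Eif4a3l2 was called. Calls became fewer without any 1 of the 15 or 120 min libraries, among the factor genes and among all genes. They became more, in both, without no4sU A or no4sU B, which enter the estimate of the spread. The median log2 fold change of the factor genes was 0.0738 with all libraries. It was 0.0567 without 15 min A, 0.0580 without 15 min B, 0.0687 without 120 min A and 0.0694 without 120 min B. With library-size scaling 6 rose (all genes 3.68%) and 6 fell (16.1%), and the share of rises went from 76.5% to 50%.

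Against unlabelled cells, no factor gene was called at the shorter times. edgeR called 0 of 66 at 15 min (background 0%), 30 min (0%), 60 min (0.0173%) and 90 min (1.39%). Its unadjusted p was below 0.05 in 4, 3, 9 and 13 of the 66, against 618, 670, 895 and 1869 of all 11564 genes. DESeq2 called 0, 0, 0 and 5, the last among 52 tested (all genes 2.88%). Without no4sU B the edgeR calls were 12, 12, 11 and 10, in fits that called 11.4%, 11.7%, 10.4% and 10.4% of all genes. Without no4sU A they were 1, 1, 2 and 13, in fits that called 0.461%, 0.29%, 1.84% and 12.3%. At 120 min 11 were called (16.7%, background 14.2%), 9 higher (13.6%, background 5.43%) and 2 lower (3.03%, background 8.78%). The 9 were Eef1a1, Eef1b2, Eef1g, Eef2, Eif1ax, Eif3b, Eif3c, Eif3h and Eif4g1, and the 2 were Eif4enif1 and Eif4ebp3. Eef1b2, Eef1g and Eif1ax each lost the call in 13 alternatives, among them most of those that left out 1 library, and Eef1b2 and Eef1g turned to -0.0083 and -0.0062 with the labelled part scaled up. Eef2 had a log2 fold change of 0.23 ± 0.045 (SE, edgeR adjusted p = 0.00236) and Eif4enif1 of -0.20 ± 0.060 (0.0292). The call of Eef2 was lost in 2 alternatives and that of Eif4enif1 in 6, DESeq2 among them.

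The number of calls at 120 min rose without no4sU A or no4sU B and fell without 120 min A or 120 min B. It did so among the factor genes and among all genes. The median log2 fold change of the factor genes was 0.0334 with all libraries, 0.0567 without no4sU A and 0.0200 without no4sU B. Over all genes it was 0.0065, 0.0047 and -0.0028. With library-size scaling the balance turned, with 2 higher (Eef2 and Eif4g1, all genes 1.76%) and 10 lower (14.6%), and the share of higher calls went from 81.8% to 16.7%. That scaling moved the median log2 fold change of all genes from 0.01 to -0.06. With the labelled part scaled up there was no call (all genes 1.64%), and none when edgeR was given the 4 compared libraries alone (1.5%).

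Genes that work with the factors were looked at beside them, as a list of 54 cofactors, regulators and release factors, all in the table and tested. With labelling time 16 rose (29.6%, background 18.3%) and 6 fell (11.1%, background 19.5%), with a median slope of 0.03 log2 per hour. From 15 to 120 min 4 rose (7.41%, background 7.93%) and 3 fell (5.56%, background 11.3%), shares at or below the background. At 120 min 7 were higher than in no4sU (13%, background 5.43%) and 4 lower (7.41%, background 8.78%). Among those that rose were Tpt1, a partner of eEF1A (slope 0.16, edgeR adjusted p = 6.98e-09, NTR at 120 min 0.0691), Rps6, the S6 protein of the small subunit (0.14, 2.39e-08, NTR 0.118), and Pabpc1, the poly(A)-binding protein (0.09, 6.07e-05, NTR 0.170). Those that fell included Ppp1r15b, which directs dephosphorylation of eIF2 (-0.19, edgeR adjusted p = 2.09e-08, NTR 0.949), Larp4 (-0.19, 2.69e-08, NTR 0.752) and Gigyf2, a repressor that binds Eif4e2 (-0.18, 9.03e-06, NTR 0.560). Ppp1r15a, the stress-induced counterpart of Ppp1r15b, had an NTR of 0.992 and a slope of -0.03 (adjusted p = 0.489, edgeR).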

How the data were processed

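Reads per gene and the NTR were analysed in 12 libraries of 6 groups, with group and letter from the sample titles. The authors deposited 1 table with estimated counts, not scaled between libraries, of which 20.4% were not whole (tolerance 1e-06) and were rounded. Its NTR is a fraction from 0 to 1 with a 90% interval, per the file headers. Columns deposited as alpha and beta, a score each that shapes the NTR distribution, were not used. The submitters' processing notes list cutadapt, Bowtie2 2.3.0 and STAR 2.7.10b. Their roles, the build, the annotation, the counting of shared reads and the use of strand were not given in the sources used here. Heavily converted reads may not be aligned, which could lower counts and NTR together.

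Counts were tested with edgeR 4.0.16 (R 4.3.3) by filterByExpr, TMM (factors 0.970 to 1.02) and the quasi-likelihood test. Contrasts between groups used 1 fit of all 12 libraries and 11564 genes (common biological coefficient of variation 4.44%), and slopes used the 10 labelled libraries and 11526 genes (2.7%). The Benjamini-Hochberg adjusted p was called below 0.05 over all genes tested. On simulated counts, 27% of genes changed by 0.3 on the log2 scale were recovered for 120 against 15 min, and 91.9% of those changed by 1, among 11488 genes. For the slope, with the same changes from 15 to 120 min, 44.4% and 96% were recovered. Both simulations took their spread from the fit of all 12 libraries. DESeq2 1.42.0 was the other tool. NTR measures used genes that averaged 100 reads or more, CPM used TMM library sizes, fold changes against NTR used log2(CPM + 1), and half-lives were ln 2 times the time over -ln(1 - NTR) for NTR of 0.01 to 0.99. With 2 against 2 libraries an exact permutation p cannot go below 0.333, so single values were not tested that way. Same-lettered libraries did not deviate together (r -0.073 to 0.090 in 15 pairs of groups), so letters were not taken as pairs.

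Members, roles and lists were chosen with earlier results of these data known. Values were printed for the 4 largest rises and falls from 15 to 120 min, the 3 highest and 3 lowest NTR, the highest level of each role and listed paralogs; other genes were added to complete their role group. Sequences came from RefSeq (GRCm38.p6) by symbol and GENCODE M21 by gene ID, and 15 of the 70 genes had no promoter entry. A planned comparison of protein sequences was not run. The search for C and T runs, TATTTAT and snoRNA hosts, and the half-life at 30 beside 120 min, were added after the data were seen.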

Additional observations from a re-analysis of the deposited data

How the results depend on the processing

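Of the 32 slope calls, 8 held in every alternative and 14 more in all but the scaled-up labelled part, in which the number was 13. That scaling left 0 calls for 120 min against no4sU (all genes 1.64%) and 1 for 120 against 15 min (2.15%). It also turned 5 values: Eef1b2 and Eef1g against no4sU at 120 min to -0.0083 and -0.0062, and the slopes of Eif2ak3 to 0.021, Eif3e to -0.0083 and Eif4a2 to 0.11. Given only the libraries compared, edgeR called 0 for 120 min against no4sU (all genes 1.5%) and 26 for 120 against 15 min (33.6%). A fit without both no4sU libraries, an alternative added after the data were seen, called 27 for 120 against 15 min (32.1%). For 90 min against no4sU the main count of 0 became 2 with library-size scaling (all genes 2.46%) and 6 with no filter (2.56%). It became 1 with the replicate block (1.58%) and 5 with DESeq2 (2.88%), and for 60 min 1 with no filter (0.556%). The replicate block gave 32 slope calls (all genes 38.6%), 17 for 120 against 15 min (20%) and 11 for 120 min against no4sU (15%). With 1 library left out at a time, calls ranged from 27 to 33 for the slope, 4 to 27 for 120 against 15 min, and against no4sU from 0 to 12 at 15 min, 0 to 12 at 30 min, 0 to 11 at 60 min, 0 to 13 at 90 min and 1 to 29 at 120 min. Calls over all genes also changed with the library left out. In these fits the lone library of a group is assumed to vary like the others. The cause of these changes was not tested. At this depth and with 2 libraries a group, changes of 0.3 on the log2 scale were mostly missed in simulated counts. For 120 against 15 min 27% were recovered and for the slope 44.4%, so the lack of a call does not show that a gene was unchanged. The spread simulated for the slope was that of the fit of all 12 libraries (4.44%), wider than in the slope fit itself (2.7%). What change an uncalled gene could hide also depends on its own SE.

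With the posterior mean the median NTR was 0.0114 at 15 min and 0.0456 at 30 min. For genes of at least 1000 reads it was 0.0381 at 30, 0.09305 at 60, 0.150 at 90 and 0.212 at 120 min, and from 10 reads 0.0415 at 30 and 0.186 at 90 min. The half-life from 1000 reads was 430, 387 and 349 min at 60, 90 and 120 min, and from 10 reads 305 min at 90 min. Single libraries gave an NTR of 0.0054 to 0.0099, 0.0398 to 0.0404, 0.110 to 0.114, 0.173 to 0.182 and 0.254 to 0.267 at 15 to 120 min, and half-lives of 344 to 356, 311 to 328 and 268 to 285 min at 60 to 120 min. The rho of fold change and NTR was -0.241, -0.552 and -0.757 with no4sU as reference at 60, 90 and 120 min, -0.575 at 60 and -0.853 at 120 min from 1000 reads, and -0.461 to -0.416, -0.722 to -0.615 and -0.809 to -0.792 in single libraries.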
